A study of Homo sapiens with 8 samples.

Results

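The baseline transcriptome of SET-2 cells was described from the control libraries of the series, that is, from cells given a non-targeting guide RNA. The members are the 4 libraries labelled non-targeting, of 8 in all, and the other 4 came from cells given a guide against ZRSR2, a splicing factor. SET-2 is an established megakaryoblastic line from an essential thrombocythemia that had transformed to leukemia, and it carries an activating JAK2 mutation. The control cells are labelled as ZRSR2 wild type and, like the ZRSR2 cells, had been transduced with a GFP-marked guide virus and grown in RPMI medium with 20% FCS. Libraries were made with an mRNA kit from 200 ng of total RNA. Experiment 1 gave replicate 1 (guide 1) and replicate 2 (guide 2), and experiment 2 gave replicate 3 (guide 1) and replicate 4 (guide 2). The extraction protocol names days 20 and 25 after transduction for 2 biological replicates, and the labels do not say whether these are the experiments. Nothing in them says that replicates came from separate transductions, so p-values measure only the spread between these libraries.

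Megakaryocytes are the marrow cells that shed platelets, and they share a progenitor and much of their transcription factor set with red cell precursors. ITGA2B encodes CD41, the integrin chain that with ITGB3 forms the platelet fibrinogen receptor, and GATA1 is the zinc-finger factor that directs both lineages. JAK2 is the tyrosine kinase bound to several cytokine receptors, the erythropoietin receptor EPOR among them, and it passes their signal to STAT factors.

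The 3 genes taken as markers of the line were all present. Counts per gene do not tell a mutant JAK2 transcript from a normal one. ITGA2B was at 2210.4, 2142, 2552 and 2730.1 CPM in replicates 1 to 4, where CPM is counts per 1000000 counts of a library after scaling. GATA1 was at 252, 252, 304 and 273 CPM, and JAK2 at 129, 124, 159.9 and 196 CPM. No library lacked any of the 3, and for all 3 both libraries of experiment 2 lay above both of experiment 1. The experiments also did not overlap, in either direction, for 75.8% of all tested genes. In the edgeR test between experiments described below, GATA1 was not called (adjusted p 0.146). Per kilobase of exonic sequence, ITGA2B was at 723, GATA1 at 180.2 and JAK2 at 28.8 CPM. ITGA2B stood above 99.7% and JAK2 above 79.6% of the expressed genes on this scale. ZRSR2 itself was at 37.8, 39.2, 39.5 and 41.5 CPM in the control replicates and at 29.5, 22.9, 28.2 and 18.7 CPM in the ZRSR2 KO replicates, so that every KO library lay below every control.

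The control libraries held 31106042, 33007719, 71521173 and 36544665 expected counts, and replicate 3 was the deepest. A floor of 3 counts corresponded to 0.0420 to 0.0964 CPM, which covers counting error alone, as no molecular identifiers are recorded for the reads. Libraries of the same experiment were more alike than libraries of different experiments. Over 12506 expressed genes, 99.5% were within 1.5-fold between replicates 1 and 2 and 92.7% between replicates 3 and 4, against 65.0% to 72.2% for pairs across experiments. No pair agreed within sampling noise, with a smallest chi-square per degree of freedom of 3.11, so all 4 were counted separately. An SD over the 4 includes the difference between experiments as well as the spread within them.

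The control guides are shown because they define the libraries described here.
NTG1: gacggaggctaagcgtcgcaa
NTG2: gcgcttccgcggcccgttcaa
Neither sequence, with or without its first base, was present on either strand of 206694 GENCODE 29 transcripts. The bases upstream of ITGA2B are shown because its counts were among the highest of the line. They span chr17:44389650-44389899 on the minus strand, the 250 bases before the RefSeq start (RefSeq table, build GRCh38.p14). Capitals mark the only match in this window to a GATA-type letter motif, at 102 to 97 bases before the start. The windows of GP9, GATA1, GATA2, HDC and JAK2, searched in the same way, had 0 matches and are not shown.
ITGA2B: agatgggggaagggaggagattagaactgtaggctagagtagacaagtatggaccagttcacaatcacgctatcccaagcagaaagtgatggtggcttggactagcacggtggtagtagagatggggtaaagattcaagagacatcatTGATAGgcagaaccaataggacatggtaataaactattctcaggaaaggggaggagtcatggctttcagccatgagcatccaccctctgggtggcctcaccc
The letters searched were GATA with an A or a T before them and an A or a G after them, on both strands. They occurred in 22.9% of all 27305 upstream windows of the same length and in 13.3% of the 9373 windows of expressed symbols, whose median GC content was 64.8% against 58% over all windows. Among expressed list members with a window, 8 of 19 megakaryocyte genes (42.1%), 9 of 15 erythroid genes (60.0%) and 5 of 7 mast cell and basophil genes (71.4%) had a match, at median GC contents of 57.6%, 52.8% and 46.4%. The share was 31.2% for 16 transcription factors of these lineages and stem cells, 25% for 4 granulocyte and monocyte genes, 20% for 10 JAK and STAT genes and 0% for 3 T and NK cell genes. Silent symbols also had a higher share than expressed ones, 31.4% of 2500 windows, at a median GC content of 48.8%. These shares were not tested, and a match describes letters, not a bound site.

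Counts were spread over many genes. Of 25435 symbols, 12506 (49.2%) were expressed, meaning at least 1 CPM in all 4 control libraries, and 5830 (22.9%) had no count in any of the 4. A further 2837 had some counts but stayed under 0.1 CPM in all 4 and are called near silent, and the remaining 4262 are called intermediate. Of 18364 protein-coding symbols, 61.9% were expressed. This share and the 49.2% over all symbols are the background for the list counts below. The 20 most abundant symbols took 5.82% to 6.51% of a library's counts, and between 1039 and 1098 symbols took 50% of them. A mean of 1000 CPM or more was reached by 79 symbols. The median over all symbols was 1.42 CPM, and over expressed symbols 32.8 CPM.

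The 20 most abundant symbols included cytoskeletal, antigen presentation, glycolytic and iron storage genes. ACTB, cytoplasmic beta-actin, was the most abundant symbol in every library, at 10289, 10858, 7362 and 6901 CPM. HLA-B, a class I antigen presentation chain, was at 3333, 3246, 5374 and 4149 CPM. The glycolytic enzymes GAPDH, ENO1 and ALDOA had means of 3918, 3365 and 1943 CPM. HLA-B and all 3 of these glycolytic genes were higher in both libraries of experiment 2 than in either of experiment 1, and ACTB was lower in both. The ferritin chains FTL and FTH1, which store iron, averaged 3118 and 2248 CPM. Others of the 20 included the translation factor EEF1A1, the actin crosslinker FLNA, the membrane linker MSN, the chaperones CALR, HSPA8 and HSP90AB1, YBX1, TUBB, ACTG1, B2M, ITGA2B and GLUL. ITGA2B, at a mean of 2409 ± 279 CPM (SD, n = 4), ranked as number 10 by counts and was the sole member of the 20 on any of the 30 gene lists described here.

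**Figure D1:**
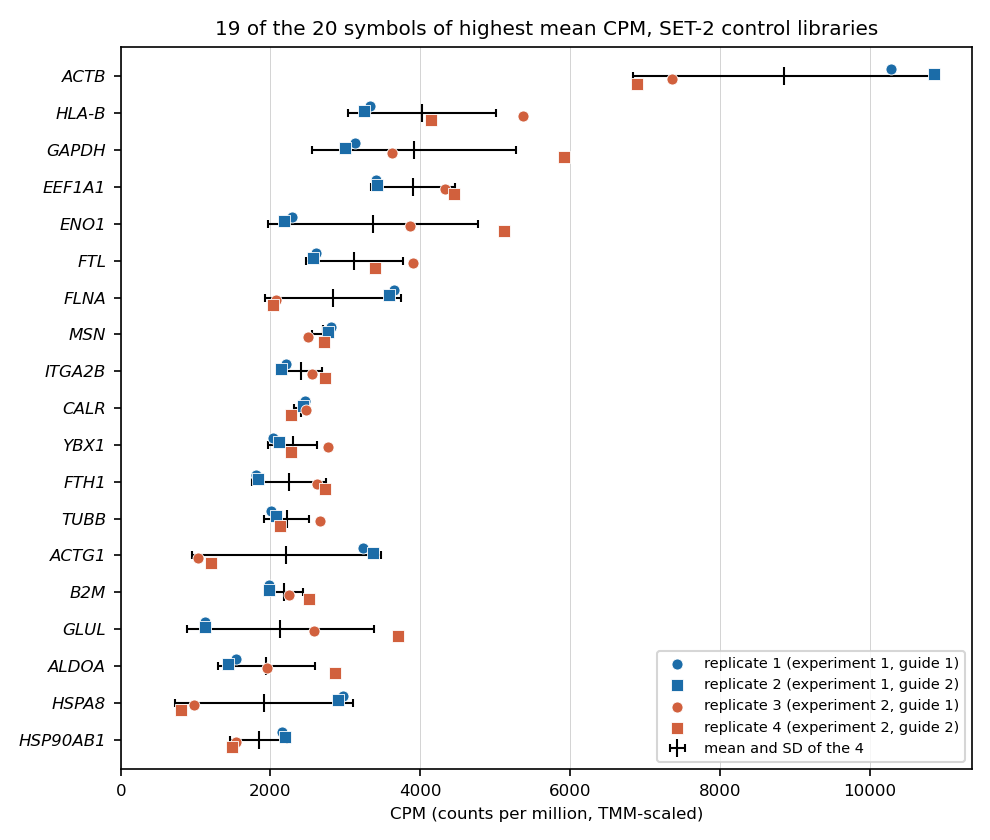
CPM of 19 of the 20 symbols of highest mean CPM (horizontal axis, linear, CPM on scaled library sizes) in the 4 control libraries, with points coloured by experiment and shaped by guide, and bars for the mean and SD of the 4. ACTB lies at 6901 to 10858 CPM and ITGA2B between 2142 and 2730 CPM, while ACTG1, GLUL and HSPA8 separate by experiment.

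Counts favour long transcripts, so the order was also taken per kilobase of exonic length, which 22704 symbols had. The highest were ACTB, FTL, HLA-B and GAPDH, at 4446, 3552, 2538 and 1762 CPM per kilobase. Per kilobase of median transcript length, an alternative chosen after seeing the data, HLA-B was the highest at 6058, above ACTB at 4886, and GAPDH was at 3063. The 20 highest with either length shared 14 symbols. Of the 20 highest by exonic length, 9 were also among the 20 highest by counts. Ribosomal protein genes entered, among them RPS18, RPS27, RPS2, RPS16, RPL7A and RPL19, as did TMSB10, an actin-binding peptide, at 1669 CPM per kilobase. So did HBG2, a fetal gamma-globin, at 1153, and APOE, a lipid-carrying protein, at 1135 CPM per kilobase. As a family, cytosolic ribosomal proteins took 4.37% to 4.59% of a library's counts, with 83 of 89 symbols expressed. HLA class I genes with B2M took 0.985% to 1.59%, with 7 of 7 expressed. HLA class II genes with CD74 took 0.205% to 0.496%, with 14 of 16 expressed, and experiment 2 held the higher values in both HLA families. Reads of near-identical HLA, ribosomal and actin genes are split by probability, so single values within these families are uncertain.

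Most megakaryocyte and platelet genes were expressed, but several late platelet genes were not. Of 37 listed genes, 30 were expressed (81.1%), 4 were intermediate, 2 near silent and 1 silent. Their median was 27.4 CPM, beside 1.42 CPM over all symbols. ITGB3, the partner chain of ITGA2B, was at 185, 187, 101 and 189 CPM, and replicate 3 was the low one. GP1BA and GP9, chains of the von Willebrand factor receptor, were at 109, 106, 97.1 and 93 and at 20.9, 20.9, 32.7 and 35.2 CPM. C6orf25, an inhibitory platelet receptor, averaged 352 ± 106 CPM (SD, n = 4), and SDPR, a caveolar protein, 172 ± 8.22 CPM (SD, n = 4). Per kilobase, ITGA2B at 723 CPM stood above ITGB3 at 37.6, GP1BA at 40.5 and GP9 at 30.8 CPM.

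Levels of further platelet genes ranged widely. THBS1, thrombospondin of the alpha granule, was at 209, 196, 52.4 and 61.5 CPM, with both low values in experiment 2. TUBB1, the platelet beta-tubulin, was at 25.3, 25.1, 64.5 and 76.1 CPM, and SELP, P-selectin of the alpha granule, at 35.2, 32.4, 51.8 and 81.6 CPM. Both were higher in both libraries of experiment 2 than in either of experiment 1. VWF, von Willebrand factor, was at 22.1, 22.9, 11.5 and 39.1 CPM, and its libraries of experiment 2 lay on either side of those of experiment 1. PF4, platelet factor 4, was at 1.45, 1.46, 1.09 and 1.33 CPM, or 2.21 CPM per kilobase. This placed a major alpha-granule chemokine of platelets just above the limit for expressed genes. PPBP, a chemokine of the same granule, stayed under that limit, at 0.387 to 0.831 CPM. LY6G6F (0.751 to 2.16 CPM), SLC35D3 (0.0304 to 0.748 CPM) and TREML1 (0.0142 to 0.129 CPM) were intermediate too. PF4V1 and the adenosine diphosphate receptor P2RY12 were near silent, at means of 0.0492 and 0.0174 CPM, and PF4V1 shares nearly all its sequence with PF4. GP1BB, the beta chain of the von Willebrand factor receptor, had 0 counts in all 4. Its readthrough symbol SEPT5-GP1BB, named after its values were seen, averaged 0.21 CPM, and reads shared between them cannot be assigned with certainty.

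Erythroid genes were expressed as broadly, with fetal globins well above adult ones. Of 35 genes, 31 were expressed (88.6%), 3 were intermediate and 1 was near silent, with a median of 42.1 CPM. HBG2 was at 855, 837, 1362 and 953 CPM and HBG1 at 197, 185, 304 and 171 CPM, and replicate 3 was the highest for both. HBB, adult beta-globin, was at 14.6, 13.4, 29.9 and 45.3 CPM, with the higher values in experiment 2. The alpha-globins HBA2 and HBA1 were at 41, 45.8, 42.2 and 38.5 and at 41.5, 43.5, 39.6 and 31.1 CPM. Per kilobase, HBG2 reached 1153 and HBG1 275 CPM, while HBA2 was at 72.7, HBA1 at 67.5 and HBB at 24.1 CPM. The embryonic genes HBE1 and HBZ were at 5.9 and 10.3 CPM per kilobase. The gamma pair and the alpha pair are near-identical genes, so the split within each pair is uncertain.

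Other erythroid functions were uneven. TFRC, the transferrin receptor that brings iron into cells, was at 1373, 1361, 718 and 1442 CPM, and replicate 3 was the low one. ANK1, a membrane skeleton gene, averaged 636 ± 51.1 CPM (SD, n = 4). CA1, a carbonic anhydrase, averaged 389.9 ± 56.1 CPM (SD, n = 4). ALAS2, the erythroid first enzyme of haem synthesis, was at 23.2, 18.5, 37.7 and 35.3 CPM. It was higher in both libraries of experiment 2. AHSP, the chaperone of free alpha-globin, averaged 2.69 CPM. HEMGN, GYPB and HBM were intermediate, at means of 1.47, 0.997 and 0.364 CPM, and TSPO2 was near silent at 0.0665 CPM. HEMGN was under 1 CPM in replicate 1 only, at 0.807 CPM. GYPB belongs to a family of closely alike genes, so its value is uncertain.

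Transcription factors of the megakaryocyte, erythroid and stem cell programs were nearly all expressed, at 21 of 22 (95.5%) and a median of 189.7 CPM. GATA2, a progenitor and mast cell GATA factor, was at 1756, 1706, 1335 and 1486 CPM. KLF1, an erythroid factor, was at 383, 380.4, 463 and 362 CPM, and FLI1, a megakaryocyte factor, at 101, 107, 108 and 154 CPM. Both were expressed in every library. TAL1, the bridging factor of the GATA complex, was at 387, 375, 361 and 389 CPM, and its partner LDB1 averaged 673 ± 95 CPM (SD, n = 4). NFE2, required for platelet release, was at 337, 339.5, 367 and 376 CPM, and RUNX1 at 422, 407, 262 and 283 CPM. GFI1B, a repressor in both lineages, was at 165, 159, 114 and 94 CPM. RUNX1 and GFI1B were lower in both libraries of experiment 2 than in either of experiment 1. Per kilobase, GATA2 was at 418 and GATA1 at 180.2 CPM, KLF1 at 247 and FLI1 at 26 CPM. The exception of the list was HLF, a stem cell factor, which was near silent at 0.0216 CPM.

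Mast cell, basophil and eosinophil genes were expressed in 10 of 14 cases (71.4%, beside 61.9% of protein-coding symbols). The median of the list was 12.9 CPM. HDC, the enzyme that makes histamine, was at 816, 779, 1364 and 1483 CPM. FCER1A, a chain of the IgE receptor, averaged 599 ± 111 CPM (SD, n = 4), and its partner MS4A2 5.71 ± 3.52 CPM (SD, n = 4). PRG2, an eosinophil granule protein, was at 369.9, 369.8, 62.3 and 116 CPM, and the mast cell protease gene CPA3 at 153, 155, 82.6 and 254 CPM. HDC was higher and PRG2 lower in both libraries of experiment 2, while CPA3 overlapped between experiments. The tryptases TPSB2 and TPSAB1, near-identical copies, averaged 39.7 and 8.68 CPM. CMA1, mast cell chymase, and CCR3, an eosinophil receptor, were near silent, at means of 0.00761 and 0.038 CPM. CLC and EPX were intermediate, at means of 0.248 and 0.141 CPM.

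Of the granulocyte and monocyte markers only 5 of 24 were expressed (20.8%), and 9 were near silent or silent. The list's median was 0.371 CPM. The 5 were CD68, LYZ, ITGAM, CD33 and CSF3R. LYZ, lysozyme, was at 224, 219, 237 and 269 CPM, ITGAM, an integrin chain of phagocytes, at 169.5, 165, 203 and 231 CPM, and CD33, a myeloid lectin, at 175, 176, 123 and 115 CPM. CD14, the monocyte endotoxin co-receptor, stayed at 0.468 to 0.70 CPM. MPO, myeloperoxidase, was at 0.0646, 0.0609, 0.0709 and 0 CPM and ELANE, neutrophil elastase, at 0.0646, 0.0304, 0.184 and 0.36 CPM. The other granule protease family genes of the list had higher means and were intermediate, with AZU1 at 0.517 to 0.872, CTSG at 0.128 to 1.0 and PRTN3 at 0.129 to 1.03 CPM. S100A8, a calcium-binding protein abundant in neutrophils, had 0 counts in all 4 libraries, and S100A9 averaged 0.0116 CPM. The myeloid factor SPI1 was at 103, 99.6, 103 and 97.5 CPM with little spread between libraries, and CEBPA, a granulocyte factor, at 10.2, 12.2, 27.4 and 16.1 CPM. IRF8, a monocyte factor, was near silent at 0.0489 CPM.

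Lymphoid genes appeared singly. Of 18 T and NK cell markers 5 were expressed (27.8%), and of 12 B cell markers 4 (33.3%). CD4, a T cell and monocyte co-receptor, was at 227, 229, 301 and 343 CPM, and CD7 at 111, 110.5, 265 and 282 CPM. PRF1, the pore-forming protein of cytotoxic cells, averaged 80.5 ± 34.7 CPM (SD, n = 4), and the other 2 expressed T and NK markers were GNLY and NKG7. The T cell receptor chains CD3D and CD3E were at 0.0969, 0.183, 0.128 and 0.0831 and at 0, 0.0304, 0 and 0 CPM, so the defining T cell genes lay at or near 0. CD79A and CD79B encode the signalling chains of the B cell receptor. CD79A was at 11.4, 11.5, 38.4 and 51.6 CPM, and CD79B averaged 23.6 ± 1.36 CPM (SD, n = 4). MS4A1, which encodes CD20, had 0 counts in all 4, and PAX5, the B lineage factor, was at 1.45, 1.83, 4.35 and 3.13 CPM. Of 14 lymphoid factors 6 were expressed, led by IKZF1 at 228 ± 49.7 CPM (SD, n = 4) and TCF3 at 151 ± 14.9 CPM (SD, n = 4), and GATA3 stayed at 0.213 to 0.42 CPM.

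**Figure D2:**
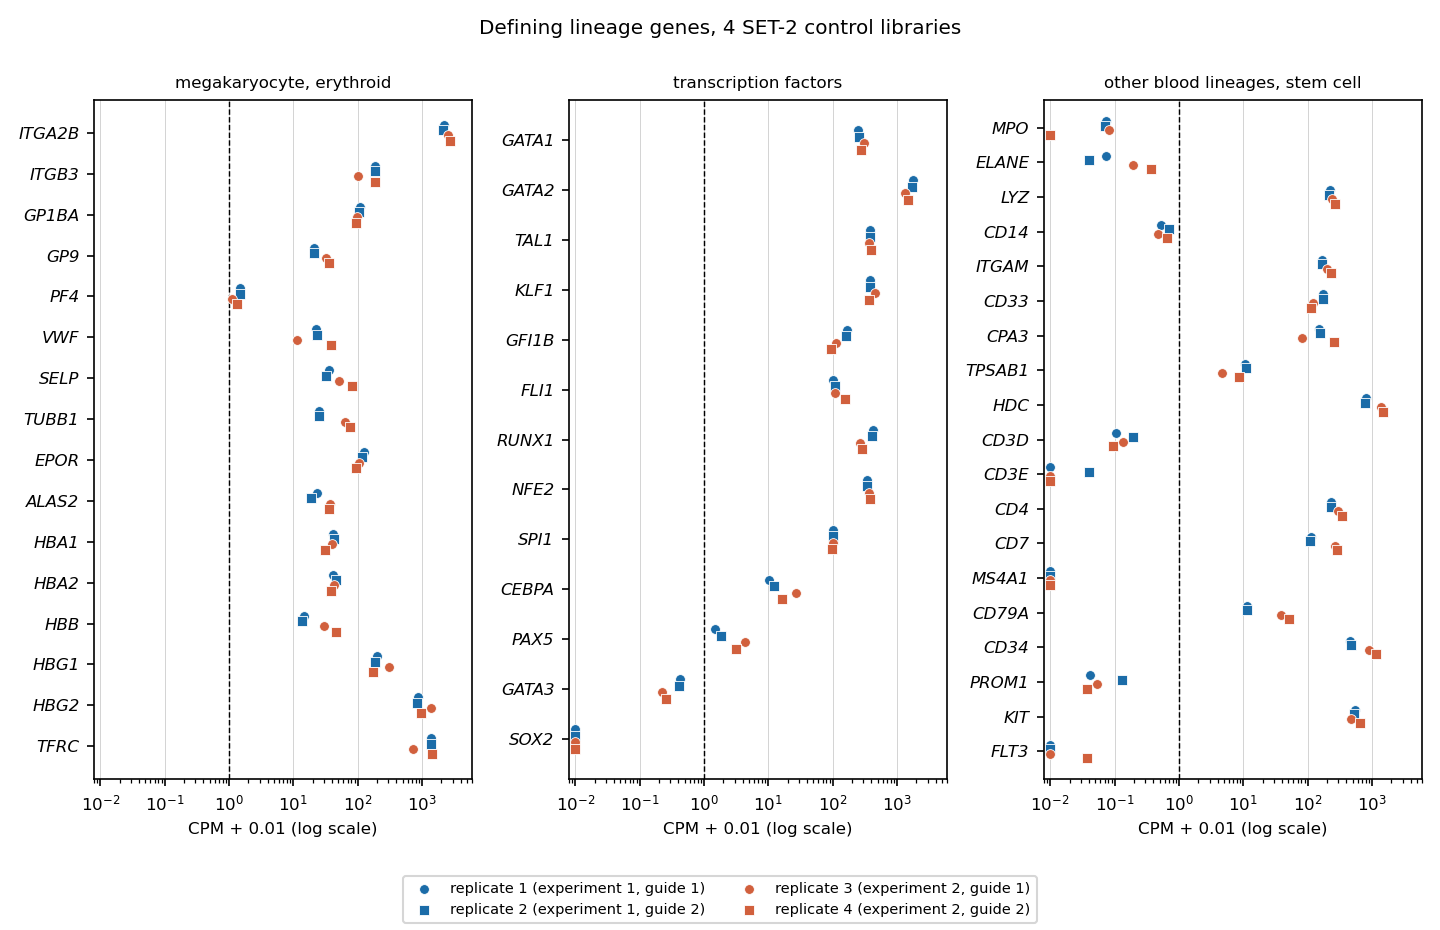
CPM plus 0.01 (horizontal axis, log scale) of defining lineage genes in the 4 control libraries, coloured by experiment and shaped by guide, with a dashed line at 1 CPM. Points at the left edge are 0 counts. ITGA2B, GATA2, HBG2 and HDC lie far right of the line, PF4 just right of the line, and MPO, CD3E, MS4A1 and FLT3 at or near 0.

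Stem and progenitor markers divided, with 7 of 15 expressed (46.7%, near the 49.2% of all symbols and below the 61.9% of protein-coding ones). CD34, a surface mucin of progenitors, was at 464, 465, 902 and 1157 CPM, with both libraries of experiment 2 above both of experiment 1. KIT, the stem cell factor receptor, was at 538, 529, 469 and 650.1 CPM. FLT3, the receptor of early progenitors, was at 0, 0, 0 and 0.0277 CPM, and PROM1, which encodes CD133, at 0.0323, 0.122, 0.0425 and 0.0277 CPM, so these progenitor markers were at or near 0. THY1 averaged 6.41 ± 4.79 CPM (SD, n = 4), and CD38 24 ± 0.457 CPM (SD, n = 4). MLLT3, a factor that maintains stem cells, and SPINK2 had 0 counts in all 4. MLLT3 lies in a run of 35 neighbouring symbols on chromosome 9, described below, that were all at 0.

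Among lists for other tissues, endothelial genes had the largest share expressed, 6 of 10 (60%, near the 61.9% of protein-coding symbols). TIE1, an orphan angiopoietin-family receptor, was at 362, 361, 801 and 738 CPM. ENG, a TGF-beta co-receptor, averaged 472 ± 42.5 CPM (SD, n = 4), and PLVAP 167 ± 49.5 CPM (SD, n = 4). PECAM1, ESAM and KDR, the VEGF receptor, were expressed as well, at 123, 93.8 and 54.8 CPM. CDH5, the cadherin of endothelial junctions, was at 3.55, 2.98, 0.978 and 2.74 CPM, and TEK, the angiopoietin receptor, had 0 counts. TEK lies in the same chromosome 9 run as MLLT3. Fibroblast genes were expressed in 2 of 10 cases, TAGLN and ACTA2, at 2.84 and 2.17 CPM, and COL1A1 stayed at 0.274 to 0.388 CPM. Epithelial genes were expressed in 5 of 10 cases (50%, near the 49.2% of all symbols), with EPCAM at 6.39, 5.45, 21 and 12.9 CPM. Of 20 genes of unrelated tissues, CKM, muscle creatine kinase, and SYN1, a synaptic protein, were expressed, at 9.52 and 2.52 CPM. ALB, serum albumin, stayed at 0.194 to 0.974 CPM. None of 18 transcription factors of other lineages was expressed, 14 were near silent or silent, and SOX2 had 0 counts. In bulk RNA, fewer cells of a type and less RNA per cell cannot be told apart, and whether lineage genes were expressed together in the same cells was not tested.

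**Figure D3:**
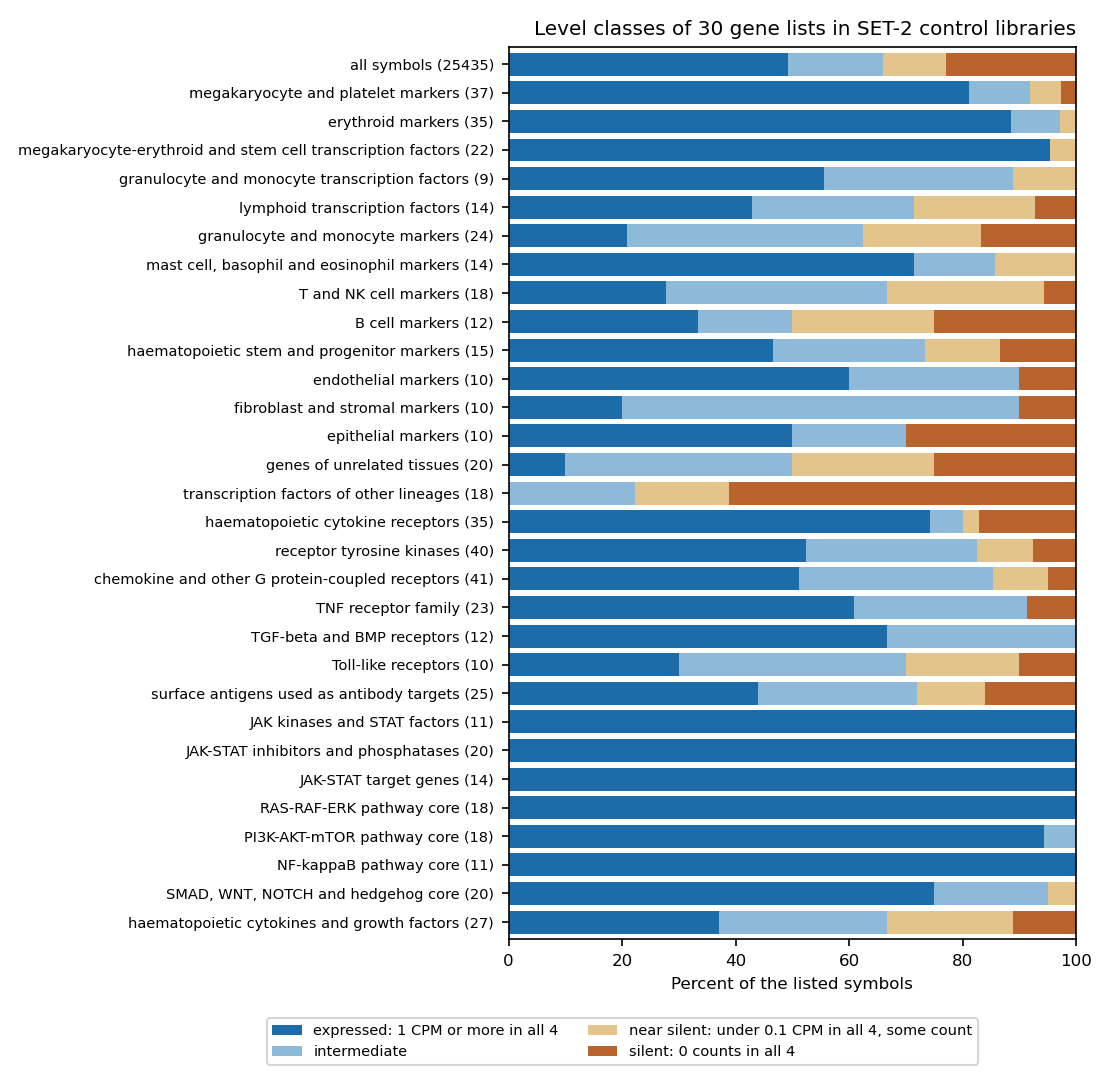
Share of the symbols on each of 30 gene lists (horizontal axis, percent) in the 4 level classes over the control libraries, with all 25435 symbols in the top bar and the number of listed symbols in brackets. The JAK kinases and STAT factors, JAK-STAT inhibitors and JAK-STAT targets are expressed throughout, and the transcription factors of other lineages have no expressed member.

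Cytokine receptors were expressed in 26 of 35 cases (74.3%, beside 61.9% of protein-coding symbols), with a median of 14.5 CPM. The share and the median count pseudoautosomal genes such as IL3RA and CSF2RA as not expressed, although their zeros cannot be read as absence. EPOR was at 125, 118, 106 and 93.8 CPM, with both libraries of experiment 2 below both of experiment 1. CSF2RB, the shared beta chain for interleukin-3, interleukin-5 and GM-CSF, was at 742, 757, 1269 and 1111 CPM. Per kilobase CSF2RB was at 199 and EPOR at 44.2 CPM. The other leading members by counts were IL4R and IL2RG, which averaged 226 and 214 CPM. IL5RA, an alpha chain that pairs with CSF2RB, averaged 17.1 ± 12 CPM (SD, n = 4), and the alpha chains IL3RA and CSF2RA were listed at 0 in all libraries, a value that carries no reading of expression for genes of the pseudoautosomal regions. CSF3R, the G-CSF receptor, was at 12.8, 11.7, 48.3 and 58.5 CPM. IL6ST, the shared chain of the interleukin-6 family, was at 47.2, 44, 49.4 and 73.5 CPM, and the interferon receptor chains IFNAR1 and IFNGR1 at 96.7, 91.1, 65 and 86.1 and at 29.5, 30.8, 26.8 and 34 CPM. The chains for prolactin and growth hormone, PRLR and GHR, had 0 counts.

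Of 40 receptor tyrosine kinases 21 were expressed (52.5%, between the 49.2% of all symbols and the 61.9% of protein-coding ones). TIE1, KIT and IGF1R led by counts, and IGF1R, the insulin-like growth factor receptor, was at 163, 154, 229.9 and 259 CPM. EGFR, TEK and ROS1 had 0 counts, TEK as part of the chromosome 9 run described below. Of 41 chemokine and other G protein-coupled receptors 21 were expressed (51.2%, also between those shares), none with a mean of 100 CPM. LPAR5, a lysophosphatidic acid receptor, averaged 85.2 ± 14.3 CPM (SD, n = 4), and GPR56, an adhesion receptor, 67.5 ± 17.7 CPM (SD, n = 4). CXCR4, the receptor for the marrow chemokine CXCL12, was at 12.3, 11.6, 12.5 and 25 CPM, and replicate 4 was the high one. Of 23 TNF receptor family genes 14 were expressed (60.9%, near the 61.9% of protein-coding symbols), led by counts by LTBR at 169 ± 35.6 CPM (SD, n = 4). TNFRSF1A was at 107, 105, 123 and 114 CPM and FAS, a death receptor, at 2.87, 2.8, 3.29 and 2.77 CPM. Of 12 TGF-beta and BMP receptors 8 were expressed, with TGFBR2 at 85.6, 83.6, 63.8 and 88.1 and TGFBR1 at 16.3, 17.4, 11.9 and 12.4 CPM. Toll-like receptors were low, with 3 of 10 expressed, and TLR4 was at 3.94, 3.93, 0.397 and 0.803 CPM. Of 25 surface antigens used as antibody targets 11 were expressed (44.0%), among them TFRC, CD44, BSG, CD7, CD33, CD276 and CD52. CD47, the signal that restrains phagocytes, was at 84.4, 86.2, 90.3 and 119.7 CPM, CD38 at 23.5, 23.7, 24.5 and 24.2 CPM, and CD274, which encodes PD-L1, at 17, 15.8, 9.7 and 10.9 CPM. FLT3, TNFRSF17, MS4A1 and LILRB4 were near silent or silent, beside the pseudoautosomal IL3RA and CD99. The 44.0% counts IL3RA and CD99 among the genes not expressed.

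A zero for IL3RA, CSF2RA, CRLF2 and IL9R could not be read as absence. These genes lie in the pseudoautosomal regions, which the X and Y chromosomes share. Of 25 symbols of these regions in the table, 23 were at 0 in all 8 libraries, including SLC25A6, a mitochondrial carrier, and VAMP7, a vesicle protein, both of which nearly all cells use. The other 2, CD99 and SPRY3, reached at most 5 and 2 counts. The group was singled out after its values were seen, and how these symbols came to be at 0 was not tested.

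Every JAK kinase and STAT factor on the list was expressed, 11 of 11, with a median of 258.5 CPM. JAK1, JAK3 and TYK2 were at 214, 213, 229.7 and 271, at 221, 213, 308 and 339 and at 262, 254, 272 and 245 CPM. Per kilobase JAK2 was at 28.8 CPM, below TYK2 at 53.7, JAK3 at 46.8 and JAK1 at 45.9 CPM. STAT3 was at 549.7, 531, 569.9 and 603 CPM. STAT5A and STAT5B, the factors downstream of EPOR and JAK2, were at 595, 614, 505 and 463 and at 251, 261, 438 and 429 CPM. STAT5A was lower and STAT5B higher in experiment 2. STAT4 was the lowest of the list, by counts and per kilobase, at 38 ± 10.8 CPM (SD, n = 4).

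The inhibitors of the pathway were expressed in 20 of 20 cases and its targets in 14 of 14. Among inhibitors, the feedback genes CISH, SOCS2, SOCS3 and SOCS1 were at 101, 90.2, 186 and 134, at 70.8, 70.0, 64.2 and 63.1, at 21.6, 19.2, 29.9 and 32.7 and at 7.01, 6.76, 13.8 and 9.23 CPM. Per kilobase, CISH was at 57.4, SOCS2 at 10.7, SOCS3 at 9.45 and SOCS1 at 5.11 CPM. SH2B3, the adaptor that restrains JAK2, was at 209, 204, 141 and 131 CPM, and PTPRC, the leukocyte phosphatase CD45, at 267, 267, 326 and 513 CPM. The phosphatases PTPN1, PTPN6 and PTPN11 averaged 399, 388 and 331 CPM. Among targets, PIM1, a survival kinase, was at 536, 515, 1139.5 and 1109.6 CPM, with both libraries of experiment 2 above both of experiment 1. MYC was at 661, 666, 707 and 663 CPM and thus nearly constant. The anti-apoptotic gene BCL2L1 was at 319, 308, 418 and 369 CPM, and the cyclins CCND2 and CCND3 at 352, 355, 347 and 383 and at 343, 348, 356 and 296 CPM. The lowest target, by counts and per kilobase, was BCL6, a repressor, at 2.49 ± 1.33 CPM (SD, n = 4).

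**Figure D4:**
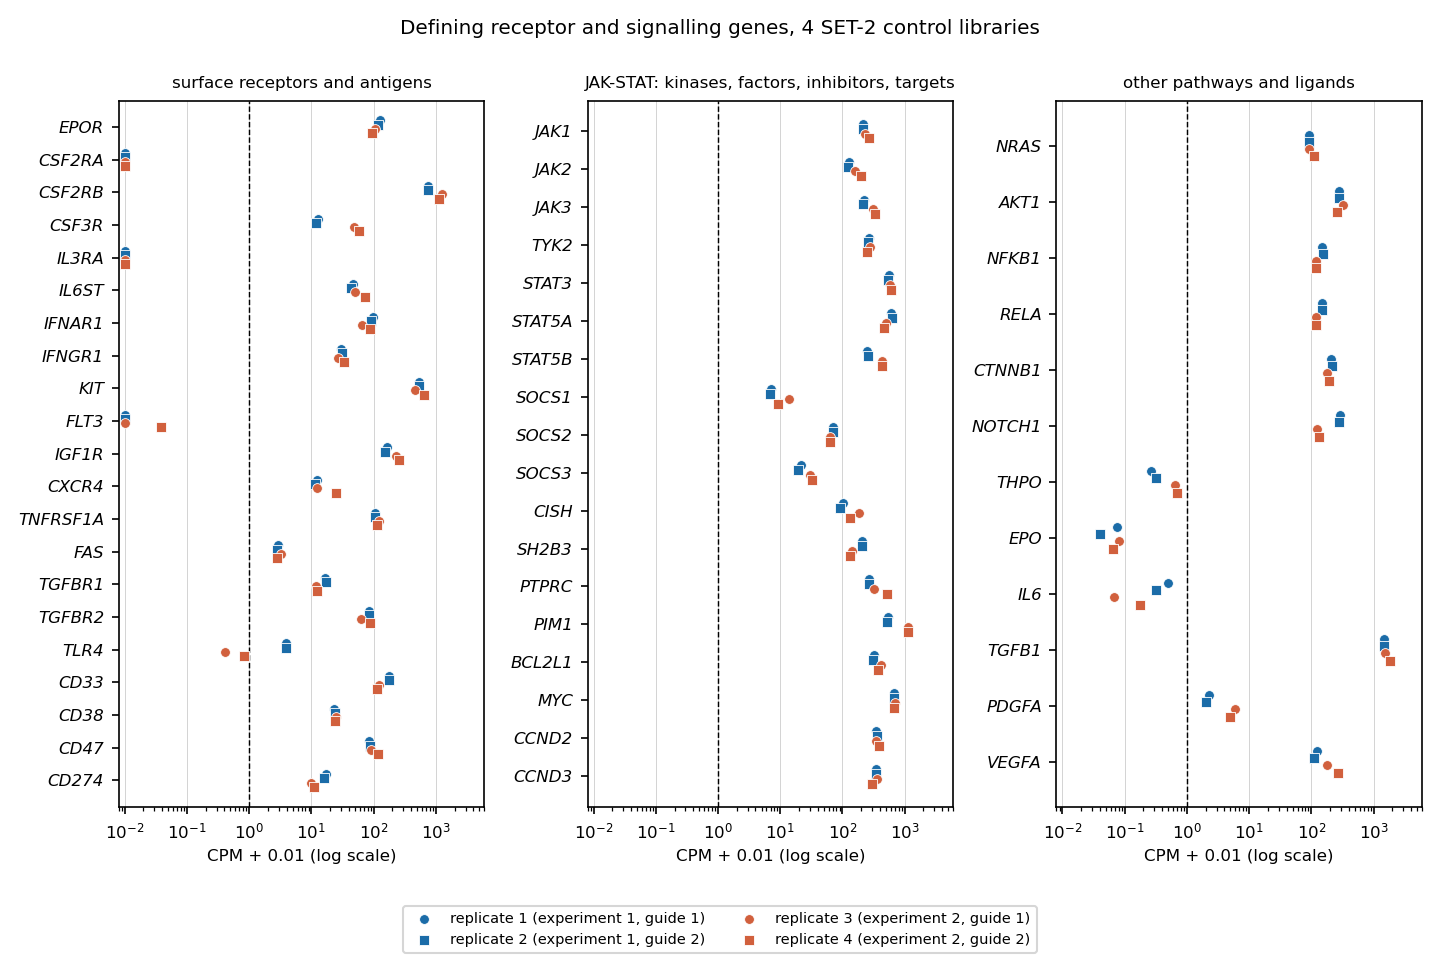
CPM plus 0.01 (horizontal axis, log scale) of defining receptor, JAK-STAT and other signalling genes in the 4 control libraries, coloured by experiment and shaped by guide, with a dashed line at 1 CPM. All JAK-STAT genes shown lie right of the line, FLT3, EPO and IL6 lie left of it, and the 0 counts of CSF2RA and IL3RA are at the left edge.

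Core genes of the RAS-RAF-ERK, PI3K-AKT-mTOR and NF-kappaB pathways were present almost without gaps. Those of SMAD, WNT, NOTCH and hedgehog signalling were less complete. All 18 RAS-RAF-ERK genes were expressed, led by SHC1, SOS1 and GRB2 at means of 304, 289 and 249 CPM. NRAS was at 93.1, 91.9, 90.3 and 111 CPM, and replicate 4 was the high one. Of 18 PI3K-AKT-mTOR genes 17 were expressed, led by INPP5D, a blood-cell lipid phosphatase, at 675 ± 114 CPM (SD, n = 4). AKT1, a survival kinase of the pathway, was at 279, 280.3, 322 and 261 CPM. All 11 NF-kappaB genes were expressed, with NFKB1 at 151, 156, 120.3 and 118 and RELA at 147, 148, 119 and 117 CPM. Of 20 SMAD, WNT, NOTCH and hedgehog genes 15 were expressed, with CTNNB1 at 205, 214, 175 and 195 and NOTCH1 at 292, 280.1, 124 and 135 CPM. AXIN2, a WNT feedback target, was near silent at 0.00761 CPM, and GLI1, GLI2, TCF7L1 and NOTCH4 were intermediate.

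Of 27 haematopoietic cytokines and growth factors 10 were expressed (37.0%). TGFB1, a platelet granule cytokine, was at 1489, 1453, 1553 and 1861 CPM, and VEGFA, which drives vessel growth, at 123, 109, 182 and 273 CPM. CSF1, IL1B and LIF averaged 292, 235 and 221 CPM. THPO, thrombopoietin, was at 0.258, 0.304, 0.638 and 0.693 CPM and EPO, the ligand of EPOR, at 0.0646, 0.0304, 0.0709 and 0.0554 CPM, both below 1 CPM in every library. PDGFA, a platelet growth factor, was at 2.26, 2.04, 5.93 and 4.88 CPM, and IL6 stayed at 0.0567 to 0.484 CPM. KITLG, the ligand of KIT, was near silent at 0.0314 CPM, and IL3 and IFNG had 0 counts.

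Several gene families had mostly members with no count. No count was seen for 338 of 398 olfactory receptors, 89 of 94 keratin-associated proteins, 48 of 50 defensins, 35 of 55 keratins and 18 of 18 late cornified envelope genes. Among olfactory receptors 1 was expressed, OR2W3, at 13.4 ± 1.72 CPM (SD, n = 4). For comparison, 22.9% of all symbols had no count.

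Along the chromosomes, 27 runs of at least 10 neighbouring protein-coding symbols had no count in the control libraries, and 3 of them held at least 10 symbols outside the large multigene families. The run on chromosome 9 was examined because it holds CDKN2A, and it was chosen after its values were seen. It comprised 35 symbols from MLLT3 to C9orf72, positions 20341665 to 27573866 in the GENCODE 29 annotation of GRCh38, which is not the hg19 build of the counts and was used here for order. All 35 were at 0 in all 8 libraries. Among them were CDKN2A and CDKN2B, inhibitors of cyclin-dependent kinases, and MTAP, an enzyme of methionine salvage. FOCAD, PLAA, IFT74 and CAAP1 lie in it too, as do the interferon alpha genes and TEK. On one side of the run RPS6, a ribosomal protein, was at 564 CPM and ACER2 at 2.70 CPM, and on the other ACO1 was at 63.7 CPM. The immediate neighbours SLC24A2 and LINGO2 had means of 0.0106 and 0.0232 CPM. Counts cannot tell an absent locus from an untranscribed one, and which of these holds was not tested. Other brakes on the cell cycle had counts in every library: CDKN2C averaged 115 ± 4.5 CPM (SD, n = 4), CDKN1B 49.4 ± 11.9 CPM (SD, n = 4) and RB1 78.2 ± 18 CPM (SD, n = 4), genes also chosen after their values were seen.

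**Figure D5:**
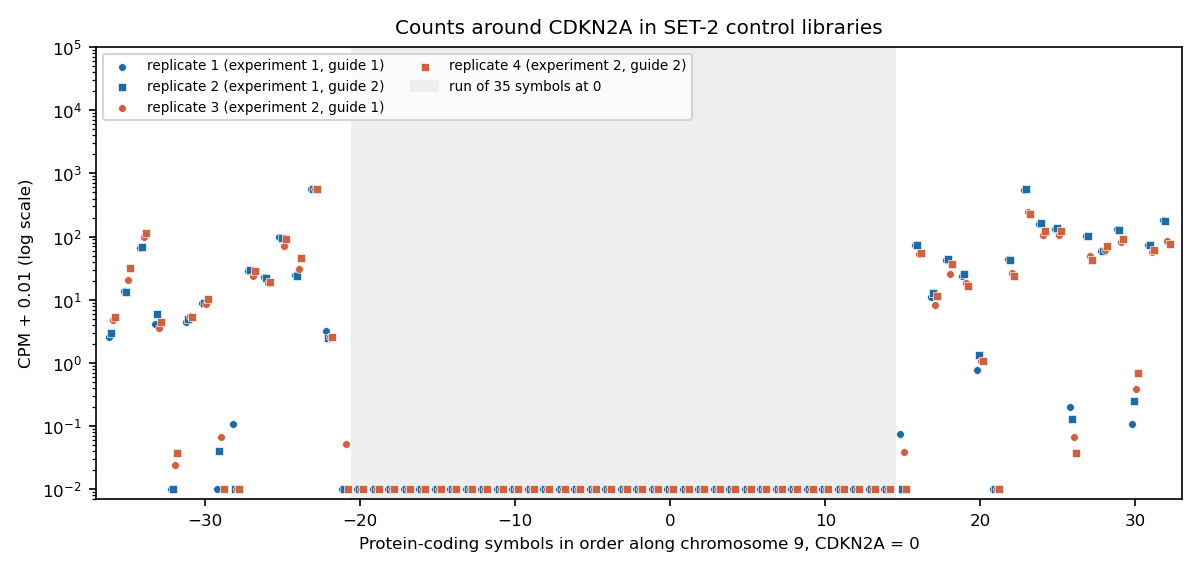
CPM plus 0.01 (vertical axis, log scale) of protein-coding symbols in their order along chromosome 9 (horizontal axis, CDKN2A at 0) in the 4 control libraries. The grey band marks the 35 symbols from MLLT3 to C9orf72, all at 0, and most of their neighbours on both sides have counts, up to 564 CPM for RPS6.

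The baseline differed between the experiments, which bears on every level above. In edgeR's quasi-likelihood test with Benjamini-Hochberg adjustment, 7080 of 15402 tested genes (46.0%) differed between the control libraries of experiments 2 and 1. Of these 3638 were higher in experiment 2 (23.6%) and 3442 lower (22.3%), and 2401 reached 2-fold. Among the 443 listed genes tested, 136 were higher and 97 lower, or 52.6% together. Without replicate 1 the count over all genes was 4349, and without replicate 2 it was 4063. Experiment, batch and any collection day cannot be told apart in these libraries.

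Changes within the erythroid and G protein-coupled receptor lists went mostly in 1 direction. Of 34 erythroid genes tested, 18 were higher and 1 was lower in experiment 2, with a median log2 fold change of 0.49, beside 0.02 over all tested genes. On the log2 scale RHAG was higher by 0.86 (SE 0.13, adjusted p 3.85e-04) and GYPC by 0.71 (SE 0.11, adjusted p 4.81e-04). EPOR was the member that fell, at −0.28 (SE 0.11, adjusted p 0.049). Of 31 G protein-coupled receptors tested, 3 were higher and 15 lower, with a median of −0.60. The log2 changes of CXCR5, CCR4 and CXCR3 were −3.75 (SE 0.49, adjusted p 1.90e-04), −1.44 (SE 0.19, adjusted p 2.07e-04) and −1.58 (SE 0.23, adjusted p 3.34e-04). Called changes went both ways in 2 other lineage lists, at shares near the 46.0% over all tested genes. Of 33 megakaryocyte genes, 11 were higher and 6 lower, among the latter THBS1 at −1.83 (SE 0.15, adjusted p 1.52e-05) and F2RL3, a thrombin receptor, at −1.59 (SE 0.12, adjusted p 9.36e-06). Of 21 transcription factors of the megakaryocyte, erythroid and stem cell programs, 2 were higher and 7 lower. MECOM, a stem cell factor, had the smallest adjusted p, at −1.17 (SE 0.15, adjusted p 1.46e-04).

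Receptor and pathway lists had called shares on both sides of the 46.0% over all tested genes. Cytokine receptors had 12 of 28 higher and 6 lower, with CSF3R at 2.12 (SE 0.15, adjusted p 8.82e-06) and IL5RA at 2.03 (SE 0.18, adjusted p 2.11e-05). Receptor tyrosine kinases had 14 of 30 higher and 6 lower, with INSR, the insulin receptor, at 1.64 (SE 0.15, adjusted p 2.43e-05). Of 11 JAK and STAT genes 3 were higher and 3 lower. STAT5B was higher, at 0.76 (SE 0.09, adjusted p 1.06e-04), and STAT4 lower, at −0.70 (SE 0.13, adjusted p 0.00164). JAK2 was higher too, at 0.49 (SE 0.13, adjusted p 0.0099). Of 14 JAK-STAT targets 4 were higher and 4 lower, with PIM1 at 1.10 (SE 0.09, adjusted p 1.66e-05), and of the 20 inhibitors 8 were higher and 2 lower. Of 18 RAS-RAF-ERK genes 4 were higher and 2 lower, and of 18 PI3K-AKT-mTOR genes 5 were higher and 4 lower. None of these shares was tested against that over all genes.

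Among genes that averaged 5 CPM or more and whose experiments did not overlap, the 5 largest called changes in each direction were taken. PDE9A, a phosphodiesterase, was at 0.194, 0.183, 8.21 and 17.4 CPM. Its log2 change was 6.06 (SE 0.48, adjusted p 1.42e-05). SDK2, LOX, H19 and LOXL2 followed at 5.78, 5.03, 4.14 and 4.04. LOX and LOXL2 are enzymes that crosslink collagen, and replicate 4 was the highest library for all 5. CCL2, a monocyte chemokine, was at 11.6, 10.3, 0.156 and 0.36 CPM. Its log2 change was −5.54 (SE 0.33, adjusted p 4.48e-06). MMP1, ALDH1A2, SLC37A2 and KRT79 were lower, at −5.45, −5.03, −4.71 and −3.71. The edgeR adjusted p-values of these 8 ran from 1.41e-07 for ALDH1A2 to 1.68e-04 for LOXL2. The libraries of the experiments did not overlap for these genes, which the choice of genes requires, and 75.8% of all tested genes showed no overlap.

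The control guides were compared next, with the experiment as a term. edgeR called 0 of 15402 genes (0.0%) between guide 2 and guide 1, with 496 at an unadjusted p under 0.05, and DESeq2 also called 0, with 327. Against the ZRSR2 KO libraries, edgeR called 0 of 14898 genes (0.0%), with 89 at an unadjusted p under 0.05. It also called 0 of the 428 listed genes tested. That fit had no term for the experiment, so its spread between libraries included the difference between experiments. A fit that took the experiment as a block gave 0 as well, with 690 genes (4.63%) at an unadjusted p under 0.05, of which 32 were listed. DESeq2 called 4 genes, TGM1, EXOSC5, SLC4A1 and MT1E, which are named after their values were seen, at log2 changes of 1.87, −0.49, −0.41 and −0.38 and adjusted p of 1.06e-04, 2.74e-04, 0.0321 and 0.0321. With the block DESeq2 called 31, of which 6 were higher and 25 lower in the KO libraries. ZRSR2 itself was among the 31, at a log2 change of −0.67 and an adjusted p of 5.38e-04.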

How the data were processed

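The authors deposited a table of expected counts, the estimated counts that RSEM assigns to genes from reads of mRNA libraries. Per the submitters' processing notes, cutadapt 1.11, RSEM 1.2.30 and the hg19 build were used. Which aligner and gene models were used, and whether counting was stranded, is not given in the sources used here. The expected counts were already whole, so rounding changed 0 values, and 0 columns belonged to other samples. Library totals are given in the report.

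CPM were computed here on TMM-scaled totals (edgeR 4.0.16, R 4.3.3). Exonic lengths came from the GENCODE 29 basic annotation (GRCh38) by symbol, for 22704 of 25435 symbols. Expressed means 1 CPM or more in all 4 control libraries, near silent under 0.1 CPM and silent 0 counts. Contrasts used edgeR's quasi-likelihood F test on all 8 libraries after filterByExpr, with p-values adjusted by Benjamini and Hochberg's method across every tested gene, called at 0.05. Experiments were compared among 4 cells of genotype by experiment, guides with the experiment as a term, and KO with genotype alone. DESeq2 1.42.0 was an alternative, with other scalings, filters, thresholds and libraries left out. On simulated counts the comparison of experiments recovered 50% of genes changed 1.5-fold and 84% of those changed 2-fold. The simulation changed only a small share of the genes, while 46.0% were called in the data. These rates therefore do not carry over to that contrast.

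Members and gene lists were chosen with earlier results of these data known. Named genes are ZRSR2 and the marker genes, the 20 highest by CPM and by CPM per kilobase, the defining and up to 4 highest members of each list, small exceptions within lists, up to 3 members per list of smallest adjusted p between experiments, and the 5 largest changes per direction whose libraries did not overlap and whose mean reached 5 CPM. Some genes that this rule selects are not reported here, and the counts over lists include them.

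The experiment pairs libraries: deviations from genotype means correlated at 0.678 to 0.846 for KO and control libraries of the same experiment. For different experiments the correlations were −0.816 to −0.709. Deviations from a mean cancel within each genotype, so these negative values follow from the positive ones and add no separate support.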

Additional observations from a re-analysis of the deposited data

Results flagged for a closer look

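Each set of 4 control libraries was searched for a library far from the other 3 by Dixon's test, over 128 quantities. In 14 of them a library stood apart, where chance gives about 1 in 20, or 6. It was replicate 4 in 7, replicate 3 in 5 and replicate 2 in 2. The chance level holds for unrelated quantities, and these share libraries.

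Replicate 3 had 71521173 expected counts, against 31106042 to 36544665 in the others, and 18398 symbols with a count, against 17795 to 17825. In the same library ITGB3 was at 100.9 CPM, against 184.8 to 188.5, and TFRC at 717.5 CPM, against 1361 to 1442. MYC was at 707.1 CPM there, against 660.8 to 665.8. Whether the depth of this library bears on these levels was not tested.

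Replicate 4 held the high value for CD47 (119.7 CPM, against 84.4 to 90.3), CXCR4 (24.96 CPM, against 11.6 to 12.5), FLI1 (153.8 CPM, against 100.8 to 108.3) and NRAS (110.5 CPM, against 90.3 to 93.1). The others were at levels of a few counts or little more. COL1A1 was at 0.3879 CPM and FLT3 at 0.02771 CPM in replicate 4, which also had no count of MPO (0 CPM). CD3E was at 0.03044 CPM and PROM1 at 0.1218 CPM in replicate 2.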

How the results depend on the processing

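Each count of a level class stayed within 1.5 times its reported value over the scalings, thresholds and left-out control libraries tried. Expressed symbols numbered 11670 (at 2 CPM) to 13216 (at 0.5 CPM), symbols under 0.1 CPM, silent ones included, 8667 to 8896 (7433 under 0.05 CPM), and silent ones 5830 to 6336 (8297 with up to 3 counts allowed). Of 240 counts of expressed members per list, 3 changed by over 1.5 times, in the fibroblast list (1 at 2 CPM and 4 at 0.5 CPM) and the unrelated tissue list (1 at 2 CPM). The 20 most abundant symbols by counts shared 9 with the 20 highest per kilobase of exonic length, and 9 per kilobase of median transcript length, a length chosen after seeing the data. Between experiments, 4063 to 7263 genes were called when a library was left out (4349 without non-targeting replicate 1, 4063 without replicate 2), and 6437 in the control libraries alone. With the guide as a replicate block the count was 6475, though the guide number did not pair the libraries (correlation −0.0507 for the same guide). Of 1323 log2 fold changes of named genes under alternatives, 14 lost the call and 0 reversed. The guide comparison called 0 genes in every setting, also with no replicate block (15 at an unadjusted p under 0.05). For KO against control, edgeR called 0 in every setting, also with the experiment as a replicate block, while DESeq2 called 4 and, with that block, 31. Depth limits statements on genes near the floor of 3 counts.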
